A study of Homo sapiens with 12 samples.

Results

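LCN2, SAA1, SAA2, CFB, C3, LTB, OLR1 and PIGR are 8 genes of acute-phase and inflammatory epithelial responses, described here in HCT15 and HCT116, established human colorectal carcinoma cell lines. They were found by symbol among the 63036 identifiers of an RNA-seq table. The genes were chosen by TPM values of the same libraries, because LCN2, SAA1, LTB and OLR1 were high in HCT15 or changed there with RNF26, so their levels in both lines are given as a description, with no test. The 4 groups were HCT15 cells overexpressing RNF26, HCT15 control cells, HCT116 cells overexpressing RNF26 and HCT116 control cells, with 3 libraries each. RNF26 is an E3 ubiquitin ligase anchored in the membrane of the endoplasmic reticulum. The labels give neither the means of overexpression, nor the control vector, nor whether the libraries of a group came from separate cultures, so p-values measure how these libraries vary, which may be technical variation alone.

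Acute-phase proteins are made in bulk by the liver during infection and injury, and epithelia of the gut make several of them locally. Their genes are classical targets of NF-kB, STAT3 and C/EBP transcription factors downstream of interleukin-1, interleukin-6, interleukin-17 and TNF signalling. In intestinal epithelium, lipocalin-2 and the serum amyloid A proteins are known as markers of inflammation.

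The label held for part of the set. LCN2, OLR1 and LTB were among the abundant transcripts of HCT15, SAA1, SAA2 and CFB were moderately expressed there, C3 reached at most 4.82 TPM (transcripts per 1000000, a length-corrected share of the library) in any library, and PIGR stayed at or below 0.61 TPM in all 12. With RNF26, HCT15 had 2.18 to 3.64 times as much CFB, SAA2, LCN2 and SAA1, less LTB, and OLR1 levels that overlapped with those of the controls. In HCT116 none of the 8 exceeded 1.17 TPM in any library.

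The promoters of 3 of the genes are shown because LCN2 and CFB were both higher with RNF26 in HCT15 while LTB was lower. A promoter was available for 4 of the 8 genes, these and PIGR, and not for SAA1, SAA2, OLR1 or C3. Each runs 5′ to 3′ from 250 bases before to 50 after the gene's start in RefSeq (GRCh38.p14). Each of these starts lies inside the gene span given below, which is from GENCODE, so distances hold for the RefSeq start only. The LCN2 promoter is chr9:128149203-128149502 on the plus strand, that of CFB is chr6:31945845-31946144 on the plus strand and that of LTB is chr6:31582376-31582675 on the minus strand. Capitals mark matches, on either strand, to a kB-type motif (GGGA or GGGG, then any 4 bases, then CC), a C/EBP-type motif (TTNNGNAA) or a STAT-type motif (TTCNNNGAA).
LCN2: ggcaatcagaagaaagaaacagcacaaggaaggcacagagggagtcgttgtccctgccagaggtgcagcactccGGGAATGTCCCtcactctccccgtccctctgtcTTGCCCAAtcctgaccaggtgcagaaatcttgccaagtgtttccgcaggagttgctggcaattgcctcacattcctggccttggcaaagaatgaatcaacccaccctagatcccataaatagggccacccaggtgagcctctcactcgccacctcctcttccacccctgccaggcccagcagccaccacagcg
CFB: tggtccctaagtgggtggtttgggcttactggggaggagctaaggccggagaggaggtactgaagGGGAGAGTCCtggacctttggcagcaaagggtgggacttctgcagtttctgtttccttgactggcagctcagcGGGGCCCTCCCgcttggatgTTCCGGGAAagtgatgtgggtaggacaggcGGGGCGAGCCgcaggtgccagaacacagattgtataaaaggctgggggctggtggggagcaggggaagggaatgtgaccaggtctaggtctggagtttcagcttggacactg
LTB: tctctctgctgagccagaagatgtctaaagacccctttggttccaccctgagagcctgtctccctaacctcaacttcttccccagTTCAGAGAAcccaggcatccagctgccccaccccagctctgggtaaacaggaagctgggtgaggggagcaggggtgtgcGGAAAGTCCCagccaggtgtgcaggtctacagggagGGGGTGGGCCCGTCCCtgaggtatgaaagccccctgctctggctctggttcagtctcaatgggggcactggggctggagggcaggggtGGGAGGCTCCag

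The LCN2 promoter held 2 kB-type matches that overlap each other, beginning 176 and 175 bases before the start, and 1 C/EBP-type match at 143 bases. The CFB promoter held 4 kB-type matches, at 185, 112, 111 and 62 bases before the start, of which the middle pair overlap, and 1 STAT-type match at 92 bases. The LTB promoter also held 4 kB-type matches, at 86, 50 and 44 bases before the start and 38 after it, and 1 STAT-type match at 165 bases. Among all 35116 RefSeq promoters of that length, 40.7% held a kB-type match of either form, 36.8% a C/EBP-type match and 7.66% a STAT-type match. Letters of the kB and C/EBP types are thus common and those of the STAT type less so. These shares count promoters with at least 1 match, not the matches in each. In the PIGR promoter none of these motifs was matched. A match is a stretch of letters and shows no binding.

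LCN2 (ENSG00000148346, chr9:128149071-128153455, plus strand, GRCh38) encodes lipocalin-2, a secreted protein that binds bacterial siderophores and so withholds iron. In the 3 HCT15 RNF26 libraries its level was 936.95, 940.87 and 942.86 TPM, against 343.24, 392.41 and 310.99 TPM in the HCT15 control libraries. The RNF26 libraries lay close together and far above all controls. The difference of log2(TPM + 1) was 1.43 (SE 0.185), a ratio of means of 2.69. It ranked between 146th and 148th among all genes of the HCT15 RNF26 libraries and between 275th and 313th in the HCT15 controls. HCT116 had 0.3, 1.0 and 0.88 TPM with RNF26 and 0.34, 0.57 and 1.17 TPM without, and those groups overlapped.

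SAA1 (ENSG00000173432, chr11:18266174-18269977, plus strand) and SAA2 (ENSG00000134339, chr11:18239223-18248643, minus strand) encode the acute-phase serum amyloid A proteins, small apolipoproteins of high-density lipoprotein. SAA1 stood at 69.17, 54.0 and 48.06 TPM in HCT15 RNF26 libraries, against 15.87, 21.68 and 9.51 TPM in HCT15 controls. SAA2 stood at 7.99, 12.94 and 14.25 TPM in HCT15 RNF26 libraries, against 6.74, 4.42 and 2.97 TPM in HCT15 controls. For both genes every RNF26 library was above every control, by a narrow gap for SAA2. The differences of log2(TPM + 1) were 1.85 (SE 0.228) for SAA1 and 1.17 (SE 0.234) for SAA2. The HCT15 control library with the lowest SAA1 and SAA2 was replicate 3, which also stood apart in its mitochondrial share. Without it the SAA1 difference was 1.55. In HCT116, SAA1 was listed at 0 in all 3 RNF26 libraries and at 0, 0.08 and 0.15 TPM in controls, and SAA2 was listed at 0 in all 6.

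How reads were shared between these genes bears on the values, since their coding sequences are nearly the same. A stretch of the reference coding sequences (GENCODE release 29, GRCh38) is shown for that reason. It is as long as a read and holds the most differing positions, 10 of 11, in capitals, and covers coding bases 174 to 323, at chr11:18269277-18269809 (SAA1, plus strand) and chr11:18245423-18245966 (SAA2, minus strand), each spanning an intron.
SAA1: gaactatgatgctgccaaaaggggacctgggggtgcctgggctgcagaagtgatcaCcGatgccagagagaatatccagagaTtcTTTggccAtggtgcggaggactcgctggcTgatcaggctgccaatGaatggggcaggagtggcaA
SAA2: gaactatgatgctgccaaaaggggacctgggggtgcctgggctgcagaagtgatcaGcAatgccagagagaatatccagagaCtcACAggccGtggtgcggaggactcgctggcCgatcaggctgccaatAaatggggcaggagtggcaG

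Over 369 bases the coding sequences were 97.0% identical, with an identical run of 186 bases. Of the 220 windows of 150 bases, the read length, 37 (16.8%) held no difference. These are single windows of the coding sequence, without the mate of a read or bases outside it. The share of read pairs that fit both genes was thus not measured. The split between SAA1 and SAA2 is therefore uncertain, as is that with SAA2-SAA4, a readthrough transcript that shares exons with SAA2. The ratio of SAA1 to SAA2 was 8.66, 4.17 and 3.37 in HCT15 RNF26 libraries and 2.35, 4.9 and 3.2 in HCT15 controls, and these overlapped.

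CFB (ENSG00000243649, chr6:31945650-31952084, plus strand) encodes complement factor B, the protease subunit of the alternative pathway convertase, and C3 (ENSG00000125730, chr19:6677704-6730562, minus strand) encodes the central complement component that this convertase cleaves. CFB stood at 18.75, 18.2 and 18.77 TPM in HCT15 RNF26 libraries, against 8.78, 9.26 and 7.53 TPM in HCT15 controls. The groups were tight and apart, with a difference of log2(TPM + 1) of 1.04 (SE 0.211) and a ratio of means of 2.18. C3 stood at 1.49, 2.34 and 2.59 TPM in HCT15 RNF26 libraries, against 4.82, 2.13 and 1.4 TPM in HCT15 controls. C3 thus overlapped between the groups while CFB did not, and its difference of -0.18 (SE 0.286) became 0.18 without HCT15 control replicate 1. In HCT116, CFB was at 0.83, 0.17 and 1.07 TPM with RNF26 and 0.71, 0.14 and 0.13 TPM without, and C3 at 0.59, 0.6 and 0.34 TPM with RNF26 and 0.06, 0.24 and 0.59 TPM without.

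LTB (ENSG00000227507, chr6:31580525-31582522, minus strand) encodes lymphotoxin beta, the membrane-bound TNF-family ligand that with lymphotoxin alpha engages the LTBR receptor. Its level was 88.9, 84.07 and 98.06 TPM in HCT15 RNF26 libraries, against 127.42, 149.64 and 114.82 TPM in HCT15 controls. Every RNF26 library was below every control, the opposite of LCN2. The difference of log2(TPM + 1) was -0.52 (SE 0.152), a ratio of means of 0.692. Under the 3 other scalings it lay between -0.41 and -0.30, and the value moved by over 1.5 times at the median-ratio end of that range. HCT116 had 0.14, 0.04 and 0.57 TPM with RNF26 and 0.03, 0.19 and 0 TPM without.

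OLR1 (ENSG00000173391, chr12:10158301-10172138, minus strand) encodes LOX-1, a C-type lectin-like scavenger receptor for oxidized low-density lipoprotein that is best known from endothelium. Its level was 301.43, 333.84 and 288.36 TPM in HCT15 RNF26 libraries, against 293.91, 305.52 and 300.84 TPM in HCT15 controls. The groups overlapped, and the difference of log2(TPM + 1) was 0.03 (SE 0.0657), from -0.03 without HCT15 RNF26 replicate 2 to 0.25 under median-ratio scaling. OLR1 was listed at 0 in all 6 HCT116 libraries. The LCN2 to OLR1 ratio was 3.11, 2.82 and 3.27 in HCT15 RNF26 libraries and 1.17, 1.28 and 1.03 in HCT15 controls, so the order of abundance was the same in all 6 but the gap was wider with RNF26.

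PIGR (ENSG00000162896, chr1:206928518-206946466, minus strand) encodes the polymeric immunoglobulin receptor, which carries IgA across mucosal epithelium. It stood at 0.12, 0.61 and 0.16 TPM in HCT15 RNF26 libraries, against 0.19, 0.25 and 0.25 TPM in HCT15 controls, and at most at 0.04 TPM in HCT116. PIGR was the one gene of the 8 that did not pass the filter of at least 1 TPM in at least 3 of the 12 libraries, so 7 entered the fit.

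**Figure D1:**
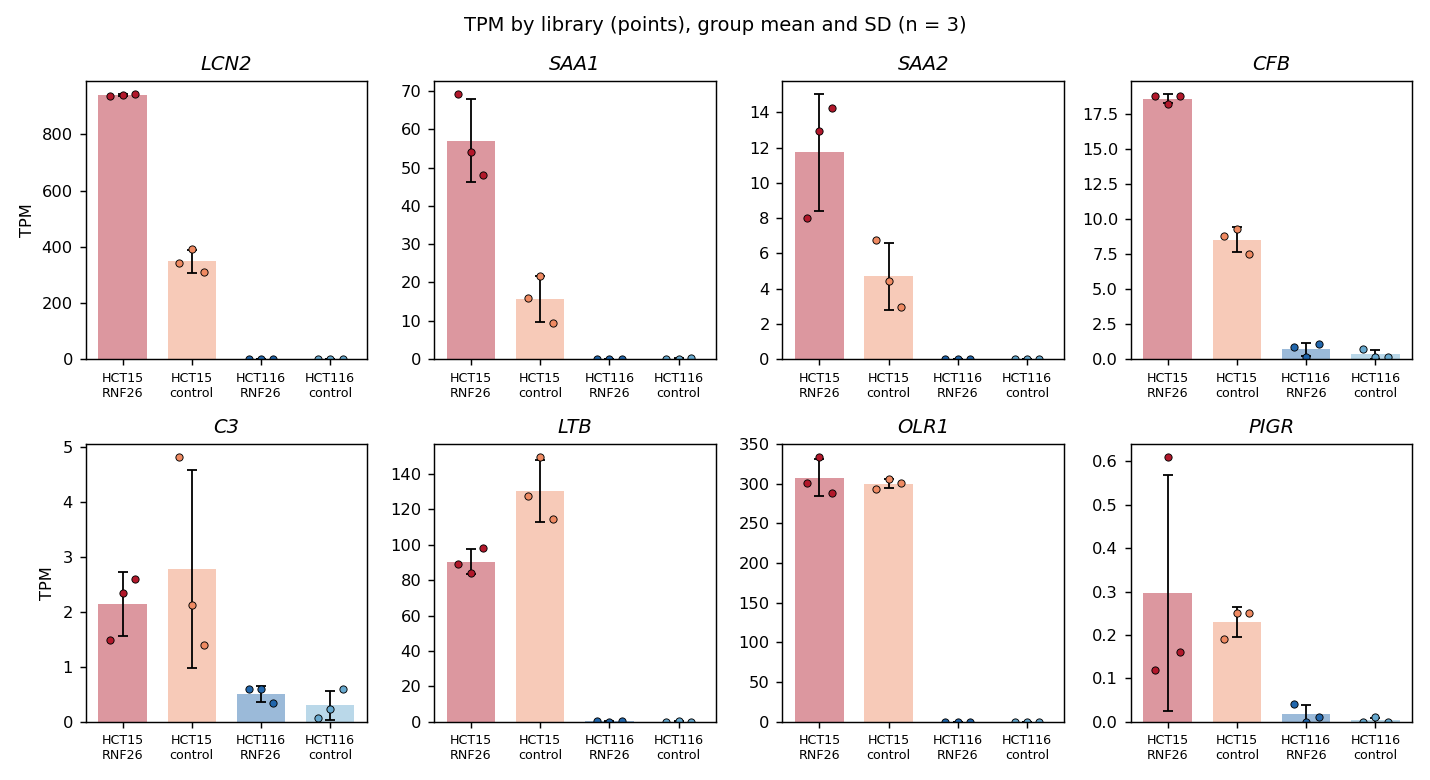
TPM of the 8 genes (vertical axis, its own linear scale for each gene) in the 4 groups. Points are libraries, bars are group means and whiskers are SD (n = 3). LCN2, SAA1, SAA2 and CFB are highest in HCT15 RNF26 libraries, LTB in HCT15 controls, OLR1 is alike in both HCT15 groups, and PIGR never passes 0.61 TPM.

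Together the 8 genes made up 1425, 1447 and 1413 TPM in HCT15 RNF26 libraries, against 801.0, 885.3 and 748.3 TPM in HCT15 controls. LCN2, OLR1 and LTB held 93.2 to 94.1% of that sum with RNF26 and 95.5 to 97.1% in HCT15 controls, so the sum says little of the other 5 genes. In HCT116 the sum was between 1.14 and 2.87 TPM. Across the 6 HCT15 libraries log2(TPM + 1) of LCN2 moved with that of CFB (Pearson r = 0.998) and SAA1 (r = 0.967), against that of LTB (r = -0.839), and little with that of OLR1 (r = 0.27). These 6 points are 3 libraries of each HCT15 group, so the values describe the group difference again.

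Between HCT15 RNF26 and HCT15 control libraries, 5 of the 8 genes did not overlap, against 43.1% of the 15584 tested genes. Of these 4 were higher, against 7.23% of tested genes, and 1 was lower, against 35.9%. The choice of genes used this contrast, so nothing is read from the counts. Over all tested genes the median difference was -0.17, and the make-up of the libraries differed as well. Ribosomal protein genes took 26.28 to 27.46% of the TPM in HCT15 RNF26 libraries, against 17.54 to 24.28% in HCT15 controls, and mitochondrial genes took 18.45 to 19.16% with RNF26, against 16.42 to 25.86% in HCT15 controls. HCT15 control replicate 3 held the highest mitochondrial and lowest ribosomal share. The part of these shares in the differences was not tested. The differences of LCN2, SAA1, SAA2 and CFB were 1.36, 1.55, 0.94 and 0.97 at the lowest when any 1 library was left out, and at least 1.39, 2.00, 1.36 and 1.19 under the 3 other scalings.

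RNF26 itself was more strongly overexpressed in HCT116. It averaged 295.8 TPM in HCT116 RNF26 libraries and 16.83 TPM in HCT116 controls, a ratio of 17.6, and 54.18 TPM in HCT15 RNF26 libraries against 26.98 TPM in HCT15 controls, a ratio of 2.01. The exact permutation p was 0.1 in each line, the smallest that 3 against 3 libraries allow. None of the 7 genes that passed the filter did so on the 6 HCT116 libraries alone. They passed through HCT15, where they were high, and in HCT116 they lay near or at 0, so that a response could hardly have been detected there and no test of them is reported. The log2(TPM + 1) scale also compresses changes at such levels.

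**Figure D2:**
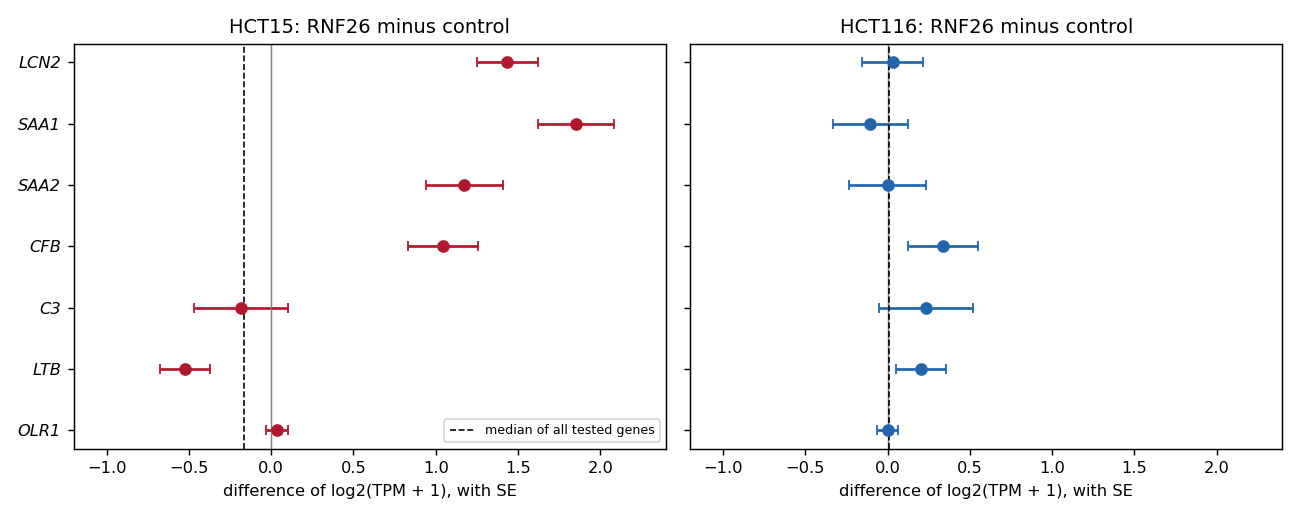
Difference of log2(TPM + 1), RNF26 minus control, with its SE, for the 7 genes that passed the filter, in HCT15 (left) and HCT116 (right). The dashed line is the median of all tested genes, -0.17 in HCT15 and 0.01 in HCT116. LCN2, SAA1, SAA2 and CFB lie above 1 in HCT15 and LTB at -0.52, while in HCT116 all lie between -0.10 and 0.34.

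All 8 genes were higher in every HCT15 control than in every HCT116 control library, against 44.8% of tested genes that were higher and 71.9% that did not overlap in either direction. A difference of 3 or more on the log2 scale was found for 4 of them, against 1.21% of tested genes. The choice used this pattern too. In order of level the HCT15 control means were 348.9 ± 41.0 TPM for LCN2, 300.1 ± 5.84 for OLR1 and 130.6 ± 17.6 for LTB (SD, n = 3). SAA1 followed at 15.69 ± 6.09, CFB at 8.523 ± 0.893, SAA2 at 4.71 ± 1.9, C3 at 2.783 ± 1.8 and PIGR at 0.23 ± 0.0346 TPM. Values after ± are SDs over the 3 libraries of a group throughout. Of adjacent genes in this order SAA2 and C3 had overlapping libraries, and the other pairs did not overlap. The order was the same in HCT15 RNF26 libraries, with no overlap between adjacent genes. The differences of log2(TPM + 1) between HCT15 and HCT116 controls were 8.23 for OLR1, 7.71 for LCN2 and 6.93 for LTB, which ranked 1st, 2nd and 4th of 15584, and 3.89, 2.87, 2.46 and 1.46 for SAA1, CFB, SAA2 and C3. The HCT15 controls enter both this contrast and the RNF26 contrast in HCT15. In bulk RNA, fewer cells expressing a gene and less RNA per cell cannot be told apart.

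Markers of other cell types were low. The leukocyte list (16 genes) summed to 11.7 to 13.2 TPM in HCT15 RNF26 libraries, against 14.2 to 22.8 TPM in HCT15 controls, mostly CD68 and CD14, and PTPRC did not exceed 0.04 and CD3E was at 0 in every library. The hepatocyte list (10 genes) summed to 6.87 to 8.02 TPM in HCT15 RNF26 libraries, against 5.38 to 5.61 TPM in HCT15 controls, nearly all of it SERPINA1, with ALB at or below 0.43 TPM and TTR at 0. The 12 fibroblast and endothelial genes summed to at most 3.03 TPM in any library. Of 9 tested markers of colon epithelium 4 fell with RNF26 in HCT15 and 0 rose, of which KRT8 and KRT19 lost the call under median-ratio scaling, beside 31.2% of all tested genes that fell and 5.39% that rose. VIL1, a microvillus protein, averaged 25.8 ± 0.525 TPM in HCT15 RNF26 libraries and 81.7 ± 21.1 TPM in HCT15 controls, and CDX2, an intestinal transcription factor, averaged 10.9 ± 3.3 TPM with RNF26 and 29.2 ± 5.82 TPM in HCT15 controls. Their part in the differences of the 8 genes was not tested. EPCAM was at 551 ± 11.5 TPM with RNF26 and 555 ± 14.3 TPM in HCT15 controls.

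Other genes of the pathway were taken from lists drawn up with earlier results of these data known, and 110 of their 239 genes passed the filter. With RNF26 in HCT15, 9 of the 110 rose and 40 fell (limma, adjusted p under 0.05, 3 libraries a group), with a median difference of -0.17, beside 36.6% called, 5.39% higher and 31.2% lower, and a median of -0.17 over all tested genes. The split depended on scaling. Median-ratio scaling gave 19 higher and 27 lower, quantile normalization 18 and 25, and leaving out mitochondrial and ribosomal protein genes 12 and 33. Without HCT15 control replicate 3, 6 were higher and 37 lower. In HCT116 limma called none of the 110, of which 31 had passed the filter only with the HCT15 libraries, and 12 of the 110 had an unadjusted p under 0.05. Of all tested genes 0.00642% were called there, which was RNF26 itself, and 657 (4.22%) had an unadjusted p under 0.05. The response differed between the lines, HCT15 minus HCT116, with 6 of the 110 higher and 24 lower, beside 20.5% of all tested genes, 1.80% higher and 18.7% lower. Median-ratio scaling gave 11 higher and 12 lower for this difference, quantile normalization 10 and 12.

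Of 26 other acute-phase proteins, 4 passed the filter, and 2 rose, 1 fell and 1 was not called. Over all tested genes 5.39% rose and 31.2% fell. SERPINA3, which encodes the protease inhibitor alpha-1-antichymotrypsin, averaged 8.57 ± 0.921 TPM in HCT15 RNF26 libraries and 3.86 ± 0.637 TPM in HCT15 controls (difference 0.98, limma adjusted p = 2.02e-04). SERPINA1, encoding alpha-1-antitrypsin, averaged 7.16 ± 0.359 TPM with RNF26 and 4.93 ± 0.299 TPM in HCT15 controls (0.46, limma adjusted p = 0.0205), a call lost without HCT15 control replicate 2 (0.0517) or 3 (0.0534), without HCT15 RNF26 replicate 1 (0.0652) or 2 (0.0511), with a pseudocount of 0.1 (0.0983) and with no filter on low values (0.0536). CD14, a lipopolysaccharide co-receptor, fell to 4.74 ± 0.586 TPM with RNF26, against 6.95 ± 0.344 TPM in HCT15 controls (-0.47, limma adjusted p = 0.00436), a call lost under median-ratio scaling (0.0711), quantile normalization (0.144) and a pseudocount of 0.1 (0.10). CRP and S100A8 were at 0 in all 12 libraries, HP, the haptoglobin gene, did not exceed 0.22 TPM, and none of 8 negative acute-phase proteins passed the filter.

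Among complement genes, 0 of 10 tested components rose and 2 fell, beside 5.39% and 31.2% of all tested genes. Median-ratio scaling gave 1 and 0. Of 6 tested regulators 1 rose and 1 fell, where median-ratio scaling gave 3 and 1. CLU, encoding the complement inhibitor and chaperone clusterin, averaged 88.3 ± 21.5 TPM in HCT15 RNF26 libraries and 179 ± 28.0 TPM in HCT15 controls (-1.02, limma adjusted p = 7.68e-04). C4BPB, encoding a chain of C4b-binding protein, averaged 23.8 ± 1.14 TPM with RNF26 and 18.4 ± 2.34 TPM in HCT15 controls (0.36, limma adjusted p = 0.0164), and that call was lost without HCT15 control replicate 3 (0.0642) or HCT15 RNF26 replicate 2 (0.0535), with a pseudocount of 0.1 (0.281) and with HCT15 fitted alone (0.0559). C2, which overlaps CFB in the genome and whose protein is its counterpart in the classical pathway, averaged 3.0 ± 1.14 TPM with RNF26 and 1.65 ± 0.682 TPM in HCT15 controls (0.58, limma adjusted p = 0.0739). C1R fell by 0.54 to 3.32 ± 0.599 TPM with RNF26, against 5.25 ± 0.401 TPM in HCT15 controls (limma adjusted p = 0.0055), and lost the call under median-ratio scaling (0.0586) and quantile normalization (0.104).

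Of 18 listed cytokines that can induce such genes 5 passed the filter. Of these 1 rose and 2 fell, beside 5.39% and 31.2% of all tested genes. IL6, IL17A, IL22 and IFNG were listed at 0 in all 12 libraries, and TNF averaged 1.15 ± 0.0557 TPM in HCT15 RNF26 libraries and 1.07 ± 0.105 TPM in HCT15 controls. LIF, a cytokine of the interleukin-6 family, fell to 12.83, 15.93 and 18.98 TPM with RNF26, against 29.27, 28.78 and 29.08 TPM in HCT15 controls (-0.85, limma adjusted p = 0.00127). IL18, of the interleukin-1 family, rose to 57.6 ± 2.98 TPM with RNF26, against 49.6 ± 1.77 TPM in HCT15 controls (0.21, limma adjusted p = 0.0204), a call lost with HCT15 fitted alone (0.0516) and without HCT15 control replicate 3 (0.0541) or HCT15 RNF26 replicate 2 (0.0636) or 3 (0.052). TGFB1 fell to 5.82 ± 0.969 TPM with RNF26, against 9.8 ± 0.77 TPM in HCT15 controls (-0.67, limma adjusted p = 0.00321). Of 17 tested cytokine receptors 0 rose and 5 fell, with a median of -0.22, where median-ratio scaling and quantile normalization each gave 2 higher and 3 lower. The share lower was near the 31.2% of all tested genes. Those that fell included TNFRSF1A, the main TNF receptor, at 24.9 ± 1.73 TPM with RNF26 and 51.6 ± 1.59 TPM in HCT15 controls (limma adjusted p = 2.39e-05), and IL17RA, an interleukin-17 receptor chain, at 2.91 ± 0.683 TPM with RNF26 and 6.86 ± 1.02 TPM in HCT15 controls (limma adjusted p = 3.89e-04).

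Of 35 tested genes of NF-kB, STAT and C/EBP signalling and other regulators 0 rose and 20 fell, with a median difference of -0.38. The list mixes activators with inhibitors. It also holds the epithelial factors KLF5, HNF4A and ELF3, which were among the 20. Of all tested genes 5.39% rose and 31.2% fell, with a median of -0.17. Median-ratio scaling gave 3 higher and 14 lower, quantile normalization 3 and 12. KLF5, an intestinal epithelial transcription factor, averaged 28.1 ± 1.11 TPM in HCT15 RNF26 libraries and 65.6 ± 8.5 TPM in HCT15 controls (-1.19, limma adjusted p = 4.4e-05). CEBPB averaged 39.6 ± 2.66 TPM with RNF26 and 78.7 ± 5.62 TPM in HCT15 controls (-0.97, limma adjusted p = 1.38e-04). NFKB1, a subunit of NF-kB, averaged 11.9 ± 1.31 TPM with RNF26 and 21.2 ± 0.501 TPM in HCT15 controls (-0.79, limma adjusted p = 1.03e-04), and STAT3 20.2 ± 1.78 TPM with RNF26 and 30.9 ± 1.35 TPM in HCT15 controls (-0.59, limma adjusted p = 3.78e-04). NFKBIA, the inhibitor of NF-kB that NF-kB itself induces, averaged 121 ± 2.64 TPM with RNF26 and 171 ± 15.6 TPM in HCT15 controls (-0.49, limma adjusted p = 0.00291). These 5 genes kept their calls under every alternative tried. These are transcript levels, and protein activity was not measured.

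The receptors for the products of the 8 genes gave 5 tested genes, of which 1 rose and 2 fell. The shares over all tested genes were 5.39% and 31.2%. LTBR, the receptor of lymphotoxin beta, averaged 41.1 ± 4.03 TPM in HCT15 RNF26 libraries and 75.7 ± 17.4 TPM in HCT15 controls (-0.84, limma adjusted p = 0.00107), so ligand and receptor were both lower. SCARB1, a lipoprotein receptor reported to bind serum amyloid A, averaged 10.8 ± 2.1 TPM with RNF26 and 23.9 ± 4.02 TPM in HCT15 controls (-1.08, limma adjusted p = 3.09e-04). TLR2, also reported as a receptor for serum amyloid A, was higher, at 7.38 ± 1.36 TPM with RNF26 and 4.36 ± 0.154 TPM in HCT15 controls (0.63, limma adjusted p = 0.00164). SLC22A17, reported as a lipocalin-2 receptor, was listed at 0 in all HCT15 libraries. In the TNF superfamily list 0 of 14 tested genes rose and 6 fell, beside 5.39% and 31.2% of all tested genes. LTBR and TNFRSF1A are in that list and also among the cytokine receptors. In the list of scavenger and C-type lectin receptors 0 of 4 rose and 1, SCARB1, fell. For that list each of the 3 other scalings gave 1 higher and 1 lower.

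Chemokines and other epithelial defence genes moved both ways, with 4 of 18 higher, 4 lower and a median of -0.02. Of all tested genes 5.39% were higher and 31.2% lower, with a median of -0.17. SLPI, a secreted antiprotease, averaged 11.6 ± 1.96 TPM in HCT15 RNF26 libraries and 4.63 ± 0.698 TPM in HCT15 controls (1.16, limma adjusted p = 7.0e-04). CCL20, a chemokine for CCR6-bearing cells, averaged 11.7 ± 1.85 TPM with RNF26 and 5.99 ± 0.207 TPM in HCT15 controls (0.85, limma adjusted p = 0.00141). ICAM1, a leukocyte adhesion molecule, averaged 33.1 ± 1.8 TPM with RNF26 and 63.8 ± 0.524 TPM in HCT15 controls (-0.93, limma adjusted p = 3.83e-05). CXCL8, the neutrophil chemokine interleukin-8, averaged 39.5 ± 2.11 TPM with RNF26 and 30.3 ± 1.62 TPM in HCT15 controls (0.37, limma adjusted p = 0.0128). The calls of CCL20 and CXCL8 were lost with a pseudocount of 0.1 (0.188 and 0.187).

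**Figure D3:**
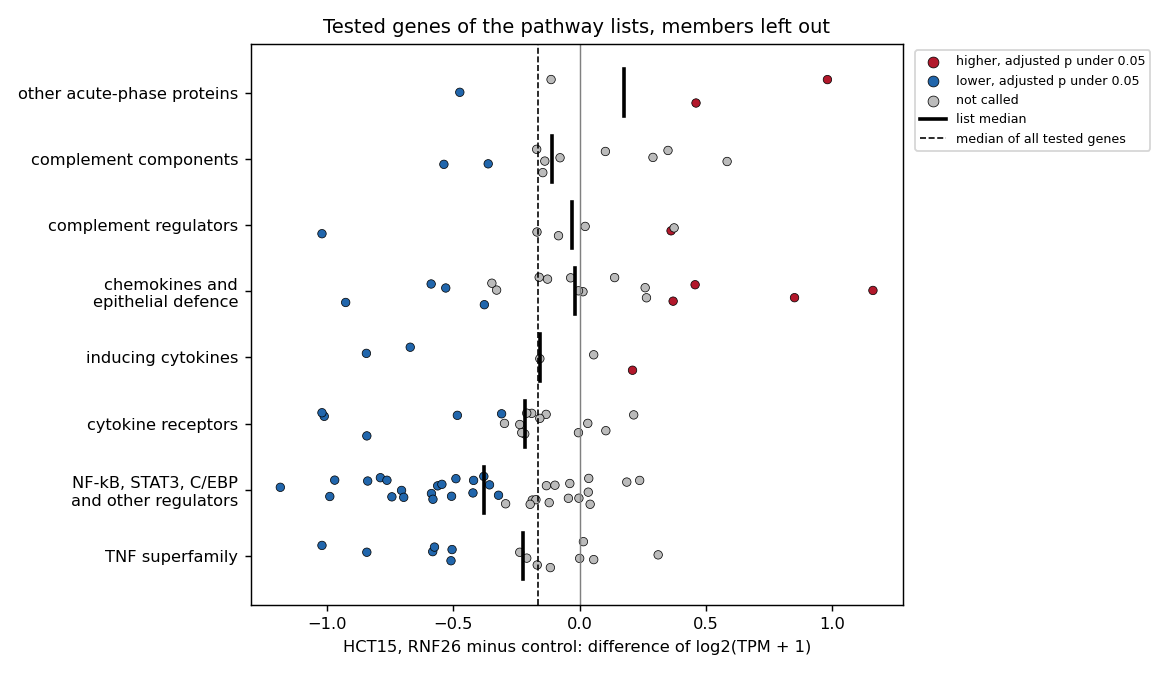
Difference of log2(TPM + 1), HCT15 RNF26 minus HCT15 control, of the tested genes of 8 pathway lists without the 8 genes themselves. Each point is a gene, red where higher and blue where lower at an adjusted p under 0.05. Thick lines are list medians and the dashed line is the median of all tested genes, -0.17. The list of NF-kB, STAT3, C/EBP and other regulators lies furthest to the left, with a median of -0.38 and 20 of 35 genes lower.

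The same lists were mostly higher in HCT15 than in HCT116 controls. Of the 110 genes 76 were higher and 18 lower, with a median difference of 1.03, beside 69.5% called, 43.6% higher and 26.0% lower, and a median of 0.22 over all tested genes. CXCL5, a neutrophil chemokine, averaged 37.8 ± 3.63 TPM in HCT15 controls and was listed at 0 in HCT116 controls (limma adjusted p = 3.6e-12). CXCL8 averaged 30.3 ± 1.62 TPM in HCT15 controls and 0.493 ± 0.136 TPM in HCT116 controls (4.39, limma adjusted p = 1.53e-11), and NFKBIA averaged 171 ± 15.6 TPM in HCT15 controls and 14.7 ± 0.685 TPM in HCT116 controls (3.45, limma adjusted p = 1.06e-10). Not all followed. CD40, a TNF receptor family member, was listed at 0 in HCT15 controls and averaged 19.8 ± 0.654 TPM in HCT116 controls, and CFD, complement factor D, which cleaves factor B, averaged 15.7 ± 3.43 TPM in HCT15 controls and 76.9 ± 2.38 TPM in HCT116 controls (-2.25, limma adjusted p = 2.58e-08).

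Protein-coding genes within 50 kb were looked at for the same pattern. Of 39 such neighbours 27 were tested, and 20 were higher and 4 lower in HCT15 than in HCT116 controls, with a median of 0.80, beside 43.6% higher, 26.0% lower and a median of 0.22 over all tested genes. TMEM52B, whose body overlaps that of OLR1, averaged 48.3 ± 0.683 TPM in HCT15 controls and was listed at 0 in HCT116 controls (limma adjusted p = 1.35e-11). GABARAPL1, an autophagy gene 40.3 kb from OLR1, averaged 181 ± 4.98 TPM in HCT15 controls and 20.1 ± 0.454 TPM in HCT116 controls (3.11, limma adjusted p = 1.5e-10), while the lectin gene CLEC7A, 28.0 kb away, was near 0 in both. Beside LTB, TNF averaged 1.07 ± 0.105 TPM in HCT15 controls and was listed at 0 in HCT116 controls, and LTA and LST1 stayed below 1 TPM on average in both lines. NFKBIL1, 21.7 kb from LTB and named after its values were seen, averaged 58.4 ± 3.46 TPM in HCT15 controls and 9.98 ± 0.539 TPM in HCT116 controls (2.44, limma adjusted p = 1.66e-10). The genes next to LCN2 differed little by comparison, with BBLN at 86.9 ± 12.2 TPM in HCT15 controls and 54.7 ± 6.39 TPM in HCT116 controls (0.66, limma adjusted p = 0.00156).

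With RNF26 in HCT15, 1 of the 27 neighbours rose and 11 fell, with a median of -0.25, beside 5.39% higher, 31.2% lower and a median of -0.17 over all tested genes. The one that rose was SAA2-SAA4 (0.97, limma adjusted p = 0.00133), whose reads cannot be told apart from those of SAA2 with certainty. TMEM52B fell to 31.2 ± 1.63 TPM in HCT15 RNF26 libraries, against 48.3 ± 0.683 TPM in HCT15 controls (-0.61, limma adjusted p = 0.00292), where OLR1 overlapped between the groups, and that call was lost when mitochondrial and ribosomal protein genes were left out (0.0541) and with a pseudocount of 0.1 (0.362). The libraries were made with a stranded kit, but the sources used here do not state whether quantification used strand, so overlapping genes such as TMEM52B and OLR1, and C2 and CFB, are uncertain in how reads were divided. NELFE, which borders CFB, averaged 145 ± 5.83 TPM in HCT15 controls, with a difference of -0.01 (SE 0.0637) with RNF26.

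**Figure D4:**
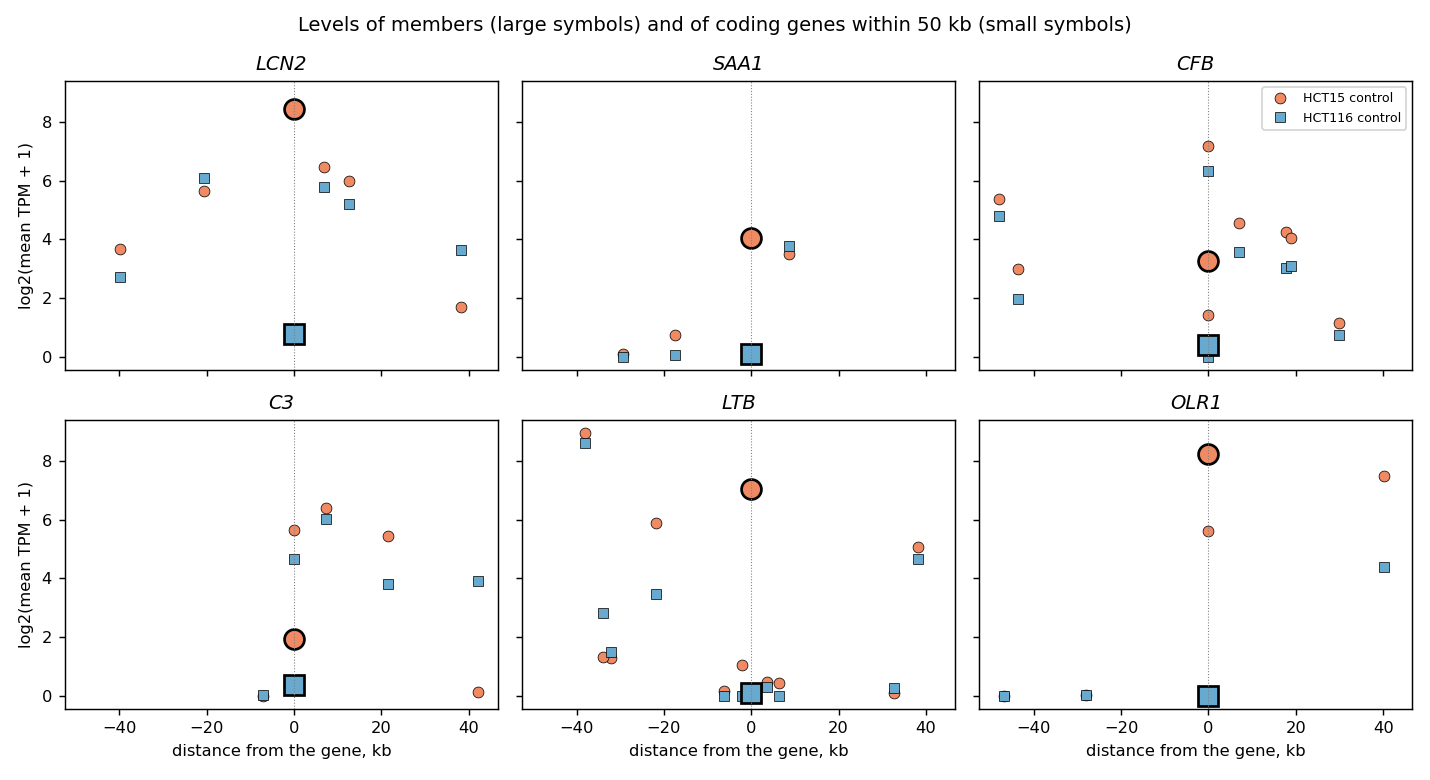
Level of 6 of the genes (large symbols, at 0 kb) and of protein-coding genes within 50 kb (small symbols), as log2 of mean TPM + 1, against distance in kb, in HCT15 controls (orange circles) and HCT116 controls (blue squares). At OLR1 the overlapping TMEM52B and GABARAPL1 at 40.3 kb are also higher in HCT15 controls, while at LTB the 3 nearest genes average at most 1.07 TPM in either line's controls.

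The genes whose log2(TPM + 1) was most like that of one of the 8 over the 12 libraries, among 9950 candidates, are given as a description. For LCN2 they were TXNIP (r = 0.9981), TIMP4 (0.998) and PLAC8 (0.9972). TXNIP averaged 130 ± 4.4 TPM in HCT15 RNF26 libraries, 73.8 ± 2.01 TPM in HCT15 controls and at most 0.0367 TPM in either HCT116 group. For OLR1 they were ALDH1L1, SCCPDH and GALC, all with r of at least 0.9997, and for LTB MX1, TMEM52B and C9orf152, with r from 0.9988 to 0.999. SAA1 and SAA2 shared TMEM59 (r = 0.9976 and 0.9915) and IGBP1 among their closest. CFB was closest to GOLPH3L (0.9909) and C3 to MAGEF1 (0.966). Most of each r comes from the gap between the cell lines, which all such genes share.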

How the data were processed

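Libraries of poly(A) RNA were made with a stranded kit and sequenced as paired reads of 150 bases, per the labels' protocols. In the table that the authors deposited, values are TPM with 2 decimals and each library sums to about 1000000, so depth is unknown and no counting error can be given. The tools were fastp, HISAT2, StringTie and RSEM and the build was GRCh38, per the submitters' processing notes. Tool versions and the annotation used were not stated there. Groups came from the sample titles.

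Values were compared as log2(TPM + 1), so folds of low genes are understated. Genes with at least 1 TPM in at least 3 of 12 libraries (15584) were fitted with limma 3.58.1 in R 4.3.3, a mean per group and a mean-variance trend, with Benjamini-Hochberg adjustment over all of them and calls at an adjusted p under 0.05. The fit was tested on simulated data. The 8 genes and the lists were chosen with earlier results of these data known. A planned test of the genes in HCT116 is not reported, since they passed the filter through HCT15 alone. Named list genes are those with the smallest p or the highest TPM in HCT15, or the largest difference between the lines' controls. Of the listed identifiers, 62625 had an entry in the gene name table, and 42300 were matched to a gene symbol. Alternatives were other pseudocounts, filters, scalings and fits, a replicate block and leaving out each library.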

Additional observations from a re-analysis of the deposited data

Results flagged for a closer look

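Over the 110 tested pathway genes, 6 had a higher and 24 a lower response to RNF26 in HCT15 than in HCT116 in the test of the difference itself (limma, HCT15 minus HCT116 response of log2(TPM + 1), adjusted p under 0.05, 3 libraries a group), beside 1.80% and 18.7% of all tested genes, and 11 and 12 under median-ratio scaling. The 20 given here are among 26 picked from the lists for the smallest p in HCT15, so their number is a result of that choice. Not all of the 26 are named in the text. Of the 110 genes 31 had passed the filter only with the HCT15 libraries. RNF26, whose own increase was smaller in HCT15, differed by -3.07 (limma adjusted p = 1.14e-06). As the overexpression differed in size between the lines, line and dose of RNF26 cannot be told apart in these differences.

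Genes whose response was higher in HCT15 were the secreted proteins SLPI (1.2, limma adjusted p = 0.00999), SERPINA3 (0.916, 0.00611), SERPINA1 (0.818, 0.014) and CCL20 (0.679, 0.0455) and the receptor TLR2 (0.633, 0.0211). TLR2, SERPINA3 and CCL20 were near 0 TPM in HCT116, where TLR2 differed by 0. For them a response could hardly have been detected in HCT116, and their values largely repeat those of HCT15. SLPI and SERPINA1 were also low there.

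Receptors with a lower response in HCT15 were SCARB1 (-1.24), IL17RA (-1.18), LTBR (-0.96), TNFRSF1A (-0.96), TNFRSF21 (-0.609), TNFRSF10B (-0.573) and CD14 (-0.553). CD14 did not exceed 0.1 TPM in HCT116, so a response could hardly have been detected there and its value largely repeats that of HCT15. Its HCT15 call was itself lost under median-ratio scaling and quantile normalization. Among transcription factors the differences were -1.1 for KLF5, -0.914 for CEBPB, -0.842 for NFKB1 and -0.596 for HNF4A. The others were -1.06 for CLU, -0.821 for LIF, -0.651 for ICAM1 and -0.57 for C1R. The HCT15 call of C1R was also lost under median-ratio scaling and quantile normalization. The adjusted p of these 15 genes lay between 0.001 and 0.0386. Over all tested genes the median of this difference between the lines was -0.184.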

How the results depend on the processing

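Values of the 7 genes that passed the filter were recomputed under each alternative. Of these 588 stayed within the spread of the libraries and 38 moved, and 703 counts over lists were within 1.5 times and 45 were not. In HCT116 the single call was RNF26, with 11 calls without a filter and 3 with HCT116 fitted alone, and 1 to 3 calls when 1 library was left out. Responses that differed between the lines numbered 3190, against 2080 under median-ratio scaling and 1932 under quantile normalization, and 1941 (without HCT116 RNF26 replicate 2) to 3857 (without HCT15 control replicate 2) with 1 library left out. It was also 2089 without HCT116 control replicate 3 and 2125 without HCT116 RNF26 replicate 1. The cause was not tested.

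In HCT15 the 5697 calls (840 higher, 4857 lower) were 4842 under median-ratio scaling (2242 higher, 2600 lower), 4796 under quantile normalization (2275 and 2521), 4903 without mitochondrial and ribosomal protein genes (1413 and 3490) and 3902 with HCT15 fitted alone. The median difference moved to between -0.08 and 0 under these scalings.

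The labels do not say whether replicate numbers pair the samples. Deviations of same-numbered libraries from their group means correlated at -0.0424 to 0.146, and only HCT15 replicate 3 correlated best with its own number. Such correlations cannot settle whether samples were paired. With a replicate block the calls were 5479 in HCT15, 1 in HCT116, 2835 for the line difference and 10770 between the lines' controls.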
